A study of Mus musculus with 6 samples.

Results

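The genes described here encode the proteins that carry long-chain fatty acids into muscle fibres and break them down in mitochondria: Cd36, Fabp3, Cpt1a, Cpt1b, Cpt2, Acacb, Acadl, Acadvl, Hadha and Hadhb. They were chosen by name, and each symbol matched a single Ensembl identifier, giving 10 of the 48795 genes in the count table. All 10 passed the filter on low counts and were among the 13628 genes tested. Their transcripts were counted by RNA sequencing of quadriceps, a large thigh muscle, in 3 MERKO and 3 control samples. All animals were C57BL/6 males aged 20 weeks. MERKO mice carry a muscle-specific deletion of the estrogen receptor ERα, whose gene is Esr1, and control mice were wild type. The labels do not say which promoter drove the deletion, whether the control animals were littermates or carried any engineered allele, or whether the libraries were made together. By its title, the series is about mitochondria and metabolism in male muscle without ERα, and the question here is how transcripts of fatty acid uptake and oxidation stood in such muscle.

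Long-chain fatty acids enter muscle with the help of the membrane protein CD36 and are carried in the cytosol by the binding protein FABP3. After activation to acyl-CoA they cross into mitochondria as carnitine esters, made by CPT1 on the outer membrane and converted back to acyl-CoA by CPT2 on the inner membrane, while malonyl-CoA made by the enzyme ACC2 (gene Acacb) restrains CPT1. Inside, acyl-CoA dehydrogenases begin each round of beta-oxidation, and the trifunctional protein, built of HADHA and HADHB subunits, carries out the remaining steps on long chains. Oxidative fibres, which are slow or of the fast type IIa, are known to rely on this pathway more than the fast glycolytic type IIb fibres that make up most of the mouse quadriceps.

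Library totals lay between 14935532 and 44282448 counts. Values are given as CPM, counts scaled to a library of 1000000 after correction of library sizes by TMM factors, which allow for differences in composition. The libraries held muscle: the muscle creatine kinase gene Ckm had between 13937 and 23586 CPM. Esr1 had 6.75, 9.43 and 7.46 CPM in MERKO 1 to 3, against 25.1, 34.1 and 31.1 CPM in control 1 to 3, and all MERKO libraries lay below all control libraries. Its log2 fold change was -1.95 (SE 0.16, adjusted p = 0.0262, edgeR quasi-likelihood test with Benjamini-Hochberg adjustment), and the adjusted p lay between 0.0163 and 0.109 when a library was left out. It missed the threshold of 0.05 without MERKO 1, MERKO 2, control 2 or control 3. An rRNA gene model took 32.4% of counts in MERKO 2, the most of any library, and 0.0433% in control 3, the least.

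The libraries also differed in the transcripts of slow-fibre genes, and this split ran across the genotypes. The summed level of 8 slow-fibre genes was 569, 51.4 and 57.6 CPM in MERKO 1 to 3, against 583, 57.9 and 64.2 CPM in control 1 to 3. MERKO 1 and control 1 therefore stood together, far above the other 4 libraries. Lists of macrophage, fast-fibre and general muscle markers were within 0.52 of their mean over the libraries on the log2 scale. In whole muscle, fewer fibres of a type and less transcript per fibre cannot be told apart.

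Hadha and Hadhb lie head to head on chromosome 5, and the promoter windows of these and of Acadvl and Cpt1a are shown because the first 3 genes moved together across the libraries while Cpt1a varied least. Each window holds 250 bases before and 50 bases after the RefSeq transcription start (GRCm38.p6), read 5′ to 3′ on the gene's strand: chr5:30154931-30155230 on the minus strand, chr5:30155003-30155302 on the plus strand, chr11:70015379-70015678 on the minus strand and chr19:3323051-3323350 on the plus strand. The RefSeq starts of Hadha, Hadhb and Cpt1a lie inside their GENCODE gene models. Capitals mark matches on either strand to 3 letter patterns, the GC box GGGCGG, the CCAAT box CCAAT and AGGTCA, the core element recognised by many nuclear receptors.
Hadha: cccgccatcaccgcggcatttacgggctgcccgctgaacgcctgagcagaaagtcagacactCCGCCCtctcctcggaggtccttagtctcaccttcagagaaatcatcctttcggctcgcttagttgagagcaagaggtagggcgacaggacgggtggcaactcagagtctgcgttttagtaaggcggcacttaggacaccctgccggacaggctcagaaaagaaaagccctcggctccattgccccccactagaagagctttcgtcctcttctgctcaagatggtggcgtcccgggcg
Hadhb: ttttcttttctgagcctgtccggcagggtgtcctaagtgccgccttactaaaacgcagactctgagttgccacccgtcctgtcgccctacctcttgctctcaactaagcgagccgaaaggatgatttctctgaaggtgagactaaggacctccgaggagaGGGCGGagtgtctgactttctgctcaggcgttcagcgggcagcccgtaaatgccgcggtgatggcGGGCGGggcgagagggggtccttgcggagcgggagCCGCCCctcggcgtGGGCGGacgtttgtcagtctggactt
Acadvl: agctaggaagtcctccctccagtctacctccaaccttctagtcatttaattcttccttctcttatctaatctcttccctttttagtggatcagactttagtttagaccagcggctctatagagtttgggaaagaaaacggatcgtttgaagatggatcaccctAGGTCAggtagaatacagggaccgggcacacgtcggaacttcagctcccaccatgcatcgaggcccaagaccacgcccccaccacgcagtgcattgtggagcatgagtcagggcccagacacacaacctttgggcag
Cpt1a: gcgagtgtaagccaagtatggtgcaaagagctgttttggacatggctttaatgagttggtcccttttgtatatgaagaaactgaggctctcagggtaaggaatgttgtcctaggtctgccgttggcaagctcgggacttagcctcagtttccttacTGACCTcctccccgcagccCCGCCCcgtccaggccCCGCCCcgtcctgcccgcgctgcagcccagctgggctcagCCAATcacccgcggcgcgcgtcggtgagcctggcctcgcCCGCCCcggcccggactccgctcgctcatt
The Hadha and Hadhb windows shared 228 bases, chr5:30155003-30155230, read in opposite directions, and the GC box of the Hadha window is one of the 4 in the Hadhb window. In the GENCODE M21 annotation 85 bases separate the gene models. RefSeq windows were matched for 9 of the 10 genes, all but Cpt1b. AGGTCA occurred in 4 of the 9 windows (Cd36, Acacb, Acadvl and Cpt1a), against 16.3% of 32851 windows of all genes. The windows of Cd36 (17835847 to 17836146) and Acacb (114165268 to 114165567) lie wholly inside their GENCODE gene models. Those models reach from 17781690 to 17888801 and from 114146535 to 114250761, so both RefSeq starts are internal. GGGCGG occurred in 6 of 9, against 35.7% of all windows, and CCAAT in 3 of 9, against 37.4%. The extended element TNAAGGTCA, known from ERR receptors, occurred in 0 of 9, against 1.28% of all windows. A direct repeat of AGGTCA with 1 base between the copies, known from PPAR, occurred in 0 of 9, against 0.0396%, and GGTCA followed after 3 bases by TGACC, the palindrome known from estrogen receptors, in 0 of 9, against 0.07%. All patterns were sought on both strands, and AGGTCA is contained in the extended element and in the repeat. A match is a string of letters and not a measured binding site.

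Read counts could not be attributed equally well to each gene. In GENCODE M21, 81.4% of the exon bases of Cpt1b, or 2744 of 3372, lie within Gm44502, a gene model on the same strand that joins Cpt1b with its neighbour Chkb and was not among the rows analysed here. How reads in shared exons were assigned is not given in the sources used here, and 628 bases of Cpt1b are free of overlap. Its counts were 67, 16 and 26 in MERKO 1 to 3, against 42, 7 and 60 in control 1 to 3, and its level is not taken here as the level of CPT1B transcripts in muscle. On the opposite strand, Dvl2 covers 42.9% of the Acadvl exon bases, Zcchc17 and Gm10570 together cover 161 of the 823 exon bases of Fabp3, and Garem2 covers 0.859% of those of Hadha. The strand setting of the counting is likewise not given. The other 6 genes share no exon base with another gene.

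None of these genes of fatty acid uptake and oxidation passed the test of MERKO against control muscle, given the spread between libraries. All 10 log2 fold changes, MERKO minus control, were above 0, against 52.1% of all genes tested, and their median was 0.30 beside 0.011 over all genes. Of the 10 genes, 0 passed an adjusted p of 0.05 in the edgeR test, where 0.00734% of all genes, Esr1 alone, did. DESeq2 and limma-voom also called 0 of the 10. In edgeR 1 of 10 had an unadjusted p below 0.05, against 7.04% of all genes, and in DESeq2 0 of 10, against 5.42%. Cpt1a, which encodes a carnitine palmitoyltransferase, was the 1 gene whose MERKO libraries all lay above its control libraries, against 6.17% of all genes, while 13.3% of all genes had groups apart in either direction.

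The direction shared by the 10 genes rested in part on MERKO 1. Without that library 5 genes were above 0 and 5 below, Cd36, Cpt2, Acadvl, Hadha and Hadhb, with a median of -0.047. Without control 1 all 10 were above 0, with a median of 0.65, and without MERKO 1 and control 1 together 9 were above 0, with a median of 0.30. Cd36 was also below 0 with limma-voom, and it was the 1 gene below 0 without control 2 and without control 3. Apart from Cpt1a the genes shared their highest library in both groups, so their directions are not separate observations.

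The order of levels was compared per kilobase of exon sequence, since longer transcripts give more reads. Fabp3 was the highest, at 216 ± 179.8 CPM per kilobase over MERKO and 113 ± 89.7 over control libraries (SD, n = 3 each). Acadvl followed at 97.5 ± 46.7 and 76.0 ± 35.7 CPM per kilobase in MERKO and control, and Cd36 at 76.9 ± 43.5 and 73.4 ± 27.6. These SDs are wide, but they do not measure the order of genes within a library. Fabp3 lay above Acadvl in every library. Cd36 lay above Acadvl in control 2 and control 3, and just above Fabp3 in control 2 (65.3 against 65.1). With the longest transcript as the length, Acadvl lay above Fabp3 in control 2 (75.3 against 65.1) and control 3 (62.5 against 57.5). In control muscle, Acadl (44.3 ± 23.0 CPM per kilobase), Acacb (28.2 ± 4.31), Hadha (24.7 ± 9.95), Hadhb (21.6 ± 7.84) and Cpt2 (15.0 ± 3.17) came next. The ranges of each neighbouring couple overlapped between libraries. Within every library, Acadl lay above Acacb, Hadha above Hadhb and Hadhb above Cpt2. Acacb lay above Hadha except in MERKO 1 and control 1. Cpt1a, at 1.99 ± 0.0376 CPM per kilobase over MERKO and 1.65 ± 0.181 over control libraries, lay below all of these in every library. With the longest transcript as the length, Hadha had 53.6 CPM per kilobase in control and stood above Acadl and Acacb.

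**Figure D1:**
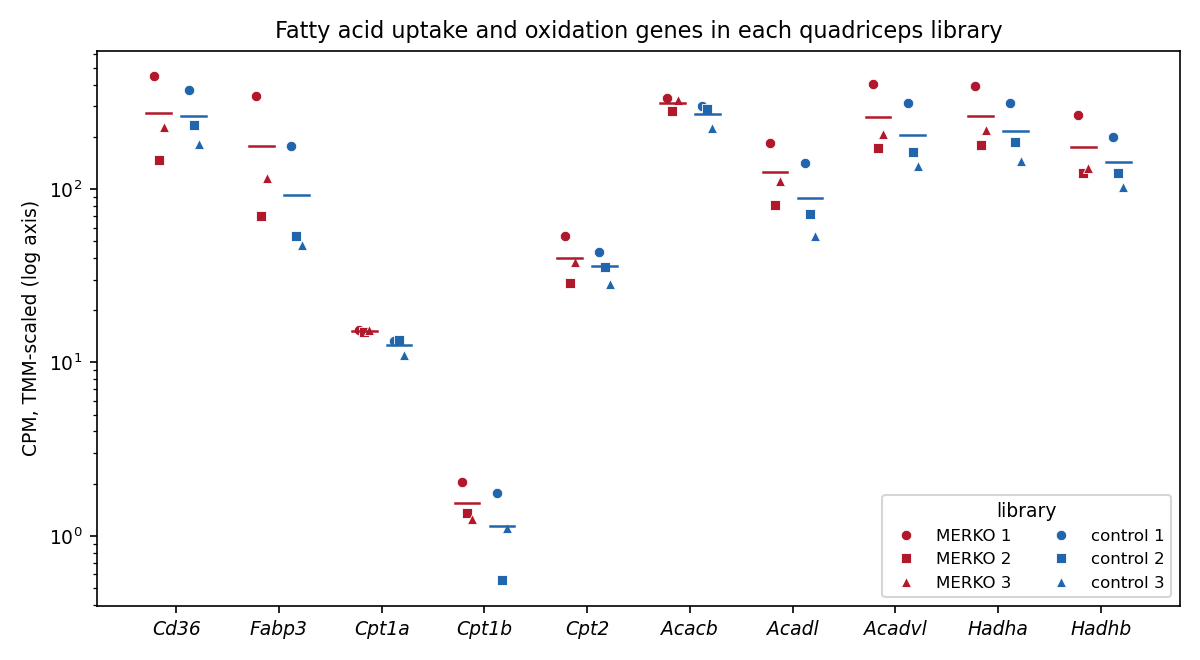
CPM of the 10 genes on a log axis, with 1 point per library (MERKO red, control blue; circle, square and triangle for replicates 1, 2 and 3) and a line at each group mean. The circles of MERKO 1 and control 1 are the highest of their group for 9 genes, and Cpt1a is the 1 gene whose groups do not overlap.

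For uptake, Cd36 and Fabp3 were examined. Cd36 (ENSMUSG00000002944, GRCm38 chromosome 5, 17781690 to 17888801, minus strand), the fatty acid transporter of the cell membrane, had 449.9, 148 and 229.6 CPM in MERKO 1 to 3, against 374, 234 and 182 CPM in control 1 to 3. The highest library of each group was replicate 1, and the lowest of all was MERKO 2. Cd36 averaged 276 ± 156 CPM over the MERKO and 264 ± 99.0 CPM over the control libraries (SD, n = 3 each), with a log2 fold change of 0.068, SE 0.40, 95% interval -0.85 to 0.99, adjusted p = 0.976 (edgeR). When a library was left out, the fold change lay between -0.48 without MERKO 1 and 0.41 without control 1, so that its sign depended on the libraries used. Cd36 is also made by adipocytes and capillary endothelium. The summed level of 10 adipocyte markers was 151, 124 and 159.6 CPM in MERKO 1 to 3, against 164, 514 and 240.2 CPM in control 1 to 3, and that of 10 endothelial markers was 275, 186 and 216 CPM in MERKO 1 to 3, against 255, 207 and 183 CPM in control 1 to 3. Fabp4, the adipocyte fatty acid binding protein, was most of the adipocyte sum in MERKO 1 to 3 and control 1. In control 2 and control 3 the other markers together made up more of the sum than Fabp4. The level of Fabp4 was 115, 72.3 and 99.5 CPM in MERKO 1 to 3, against 100.2, 180 and 92.0 CPM in control 1 to 3. It did not follow the other markers in MERKO 1, where it was second only to control 2. Adipoq (2.16 CPM), Plin1 (1.25 CPM), Cidec (1.82 CPM), Lep, Retn and Cfd were at their lowest in that library. Thrsp and Trarg1 were lowest in MERKO 2, and Adig was highest in MERKO 1. The sum is therefore a poor measure of adipocytes where Fabp4 is most of it. Over single markers, the adipocyte list had a median log2 fold change of -2.07. Of its markers 9 of 10 lay below 0, where 52.1% of all genes were above 0. An unadjusted p below 0.05 in edgeR was found for 7 of 10, against 7.04% of all genes. For 6 of 10 all MERKO libraries lay below all control libraries, where 13.3% of all genes had groups apart in either direction. Of the endothelial markers 4 of 10 were lower, with a median of 0.085. All markers of both lists had counts in all libraries, and none passed the threshold. Cd36 in control 2, where the adipocyte sum was highest, was below MERKO 1 and control 1 and above the other 3 libraries, and the part of these cells in the Cd36 level was not tested.

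Fabp3 (ENSMUSG00000028773, chromosome 4, 130308595 to 130315463, plus strand), the heart and muscle fatty acid binding protein, had the widest spread of the 10 genes. Its level was 346, 69.6 and 117 CPM in MERKO 1 to 3, against 178, 53.6 and 47.3 CPM in control 1 to 3. The highest library stood 4.97-fold above the lowest within MERKO and 3.76-fold within control. Fabp3 averaged 177 ± 148 CPM over the MERKO and 93.0 ± 73.8 CPM over the control libraries (SD, n = 3 each), with a log2 fold change of 0.93, SE 0.66, 95% interval -0.59 to 2.46, adjusted p = 0.764 in edgeR, so a 1.91-fold difference lay inside the spread between libraries of each group. Without MERKO 1 the log2 fold change was 0.0039, and without control 1 it was 1.82. The SD of its log2 CPM over the 6 libraries was 1.11, larger than that of 98.6% of the genes tested, whose median was 0.213.

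The carnitine step is catalysed by CPT1 and CPT2. Cpt1a (ENSMUSG00000024900, chromosome 19, 3322334 to 3385733, plus strand), the isoform known as that of liver, had 15.3, 14.9 and 15.4 CPM in MERKO 1 to 3, against 13.3, 13.5 and 11.0 CPM in control 1 to 3. All MERKO libraries lay above all control libraries. The highest library was 1.04-fold above the lowest within MERKO and 1.23-fold within control, beside 1.21-fold between the group means. Cpt1a averaged 15.2 ± 0.287 CPM over the MERKO and 12.6 ± 1.39 CPM over the control libraries (SD, n = 3 each), with a log2 fold change of 0.28, SE 0.11, 95% interval 0.017 to 0.54, adjusted p = 0.687 (edgeR). It was the 1 gene of the 10 with an unadjusted p below 0.05, 0.0395, which ranked 780 among the 13628 genes tested. The log2 fold change was 0.18 without control 3 and 0.33 without control 2, above 0 whichever library was left out, and it did not pass the threshold in any of those fits. The difference is therefore not called.

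Cpt1b (ENSMUSG00000078937, chromosome 15, 89416405 to 89425863, minus strand), the isoform known as that of muscle, had 2.04, 1.35 and 1.25 CPM in MERKO 1 to 3, against 1.76, 0.552 and 1.10 CPM in control 1 to 3, which rests on the few reads described above. Control 2, with 7 counts, was the lowest, and the groups overlapped (log2 fold change 0.42, SE 0.40, 95% interval -0.51 to 1.34, adjusted p = 0.836, edgeR). Without MERKO 1 the log2 fold change was 0.13, and without control 1 it was 0.81. Cpt2 (ENSMUSG00000028607, chromosome 4, 107903981 to 107923610, minus strand), the carnitine palmitoyltransferase of the inner membrane, had 53.8, 28.6 and 38.0 CPM in MERKO 1 to 3, against 43.5, 35.7 and 28.3 CPM in control 1 to 3. MERKO 1 was the highest and control 3 the lowest, and the other 4 libraries mixed (log2 fold change 0.17, SE 0.24, 95% interval -0.37 to 0.71, adjusted p = 0.881), and without MERKO 1 the log2 fold change was -0.10.

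Acacb (ENSMUSG00000042010, chromosome 5, 114146535 to 114250761, plus strand) encodes the mitochondrial acetyl-CoA carboxylase whose product inhibits CPT1. Its level was 336, 284 and 329 CPM in MERKO 1 to 3, against 303, 288 and 225 CPM in control 1 to 3, with the highest library 1.18-fold above the lowest in MERKO and 1.35-fold in control. The lowest was control 3, and MERKO 2 lay below control 1 and control 2. Acacb averaged 316 ± 28.2 CPM over the MERKO and 272 ± 41.5 CPM over the control libraries (SD, n = 3 each), with a log2 fold change of 0.22, SE 0.14, 95% interval -0.11 to 0.54, adjusted p = 0.741 in edgeR. The within-library log2 ratio of Acacb to Cpt1b counts was 7.71 ± 0.34 in MERKO and 8.04 ± 0.86 in control. That of Cpt1a to Cpt1b was 3.33 ± 0.38 and 3.62 ± 0.89 in MERKO and control. Exact two-sided permutation tests gave p = 0.7 and p = 0.8, where 3 against 3 libraries allow no p below 0.1 (adjusted p = 0.8 for both over the 3 ratios tested). Without control 2, with its 7 Cpt1b counts, the difference between groups was 0.16 for the Acacb ratio and 0.22 for the Cpt1a ratio, in place of -0.33 and -0.28.

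The dehydrogenases Acadl and Acadvl act on long and very long chains. Acadl (ENSMUSG00000026003, chromosome 1, 66830839 to 66863277, minus strand) had 185, 81.0 and 112 CPM in MERKO 1 to 3, against 141, 72.1 and 53.5 CPM in control 1 to 3. Replicate 1 was again the highest of each group and control 3 the lowest of all. Acadl averaged 126 ± 53.6 CPM over the MERKO and 88.8 ± 46.0 CPM over the control libraries (SD, n = 3 each), with a log2 fold change of 0.51, SE 0.39, 95% interval -0.39 to 1.41, adjusted p = 0.790 in edgeR, and the fold change lay between 0.12 without MERKO 1 and 1.01 without control 1. Acadvl (ENSMUSG00000018574, chromosome 11, 70010183 to 70015411, minus strand) had 405, 172 and 208 CPM in MERKO 1 to 3, against 314, 163 and 136 CPM in control 1 to 3. It averaged 262 ± 125 CPM over the MERKO and 204 ± 96.0 CPM over the control libraries (SD, n = 3 each), with a log2 fold change of 0.36, SE 0.39, 95% interval -0.53 to 1.25, adjusted p = 0.853, and its fold change lay between -0.10 without MERKO 1 and 0.81 without control 1. For both genes the difference between the group means was smaller than the SD within either group.

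The trifunctional protein genes Hadha (ENSMUSG00000025745, chromosome 5, 30118304 to 30155162, minus strand) and Hadhb (ENSMUSG00000059447, chromosome 5, 30155248 to 30184593, plus strand) have the overlapping windows printed above. Hadha, the alpha subunit with hydratase and dehydrogenase activity, had 395, 179.6 and 220.4 CPM in MERKO 1 to 3, against 312, 188 and 145 CPM in control 1 to 3. Hadhb, the beta subunit with thiolase activity, had 269, 123 and 133 CPM in MERKO 1 to 3, against 201, 124 and 102 CPM in control 1 to 3. MERKO 1 and control 1 were the highest and control 3 the lowest for both, and the groups overlapped. The log2 fold changes were 0.30 for Hadha (SE 0.35, adjusted p = 0.859) and 0.30 for Hadhb (SE 0.34, adjusted p = 0.859, edgeR), and without MERKO 1 they were -0.11 and -0.15. Each gene varied between 1.96-fold and 2.20-fold within a group, and their ratio varied less. The log2 ratio of Hadha to Hadhb counts was 0.554, 0.544 and 0.730 in MERKO 1 to 3, against 0.637, 0.598 and 0.504 in control 1 to 3. It averaged 0.61 ± 0.10 in MERKO and 0.58 ± 0.068 in control, a difference of 0.029 (exact permutation p = 0.8, adjusted p = 0.8 over the 3 ratios, smallest possible p 0.1). The sign of that difference turned without MERKO 3 (-0.031) or without control 3 (-0.0081).

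**Figure D2:**
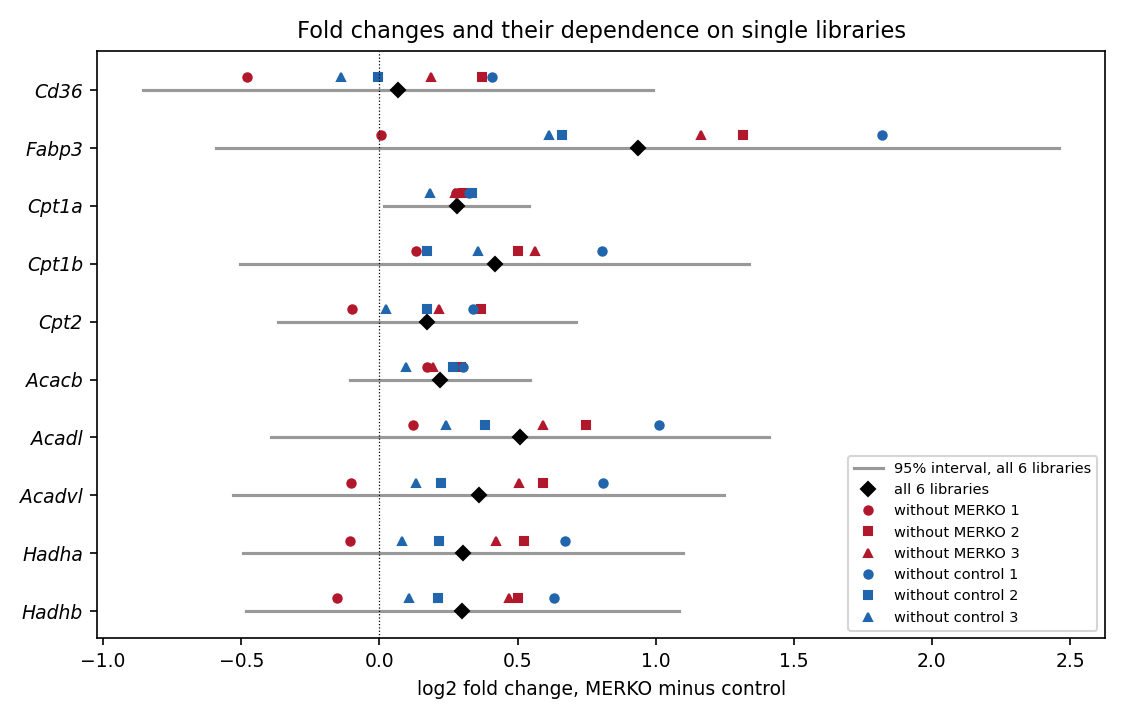
Log2 fold change of each gene, MERKO minus control, from edgeR with all 6 libraries (diamond, with its 95% interval as a line) and with each library left out in turn (symbols above the line, MERKO red, control blue). All diamonds lie above 0; without MERKO 1 the values of Cd36, Cpt2, Acadvl, Hadha and Hadhb lie below 0.

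For all genes but Cpt1a, the fold between the highest and lowest library of either genotype was larger than the fold between the genotype means. For Cpt1a this held within control but not within MERKO. For 9 of the 10 genes, all but Cpt1a, MERKO 1 was the highest MERKO library and control 1 the highest control library, which held for 18.9% of all genes tested. Both libraries were those rich in slow-fibre genes: Myh7, the slow myosin heavy chain, had 160.3, 1.77 and 2.12 CPM in MERKO 1 to 3, against 185, 6.00 and 8.07 CPM in control 1 to 3. The slow-fibre genes did not order the other 4 libraries as the fatty acid genes did. Myh2, the myosin heavy chain of type IIa fibres, had 3049.8, 164 and 722 CPM in MERKO 1 to 3, against 1514, 56.7 and 38.3 CPM in control 1 to 3, and Myh1, of type IIx fibres, had 10132, 2307 and 3526 CPM in MERKO 1 to 3, against 6083, 2021 and 701 CPM in control 1 to 3. Both ordered the 6 libraries as Fabp3, Acadl and Acadvl did, from MERKO 1, control 1, MERKO 3, MERKO 2 and control 2 down to control 3, an order found in 139 genes, or 1.02% of those tested. Mb, the oxygen store myoglobin, had 2242, 297 and 788 CPM in MERKO 1 to 3, against 1621, 401 and 212 CPM in control 1 to 3, the order of Cpt2, Hadha and Hadhb. Myh2, Myh1 and Mb were singled out after their values were seen. Myh2 and Myh1 are on the fast-fibre list, and its other genes ran the other way, each lowest in MERKO 1. These were Myh4, Tnnt3, Tnni2, Tnnc2, Mylpf, Atp2a1 and Actn3. Myh4, the myosin heavy chain of type IIb fibres, had 39867 CPM in MERKO 1 and 55646 CPM in control 1.

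Nuclear genes of the respiratory chain and citrate synthase were also highest in MERKO 1 and control 1. The summed level of the 13 genes of that list was 9024, 5773 and 6596 CPM in MERKO 1 to 3, against 8806, 6089.7 and 5458 CPM in control 1 to 3. Relative to the mean of the 6 libraries, it stood at 0.40 in MERKO 1 and 0.37 in control 1 on the log2 scale, where Acadvl stood at 0.91 and 0.54 and Acacb at 0.20 and 0.053. In control 3 it stood at -0.32, where Acadl stood at -0.88, Fabp3 at -1.14, Acacb at -0.38 and Cpt1a at -0.33. The tendon list summed to 395, 199 and 82.2 CPM in MERKO 1 to 3, against 83.2, 29.7 and 70.2 CPM in control 1 to 3, highest in MERKO 1 and next in MERKO 2, with control 1 close to MERKO 3. The median of its 8 markers was 2.21 as a log2 fold change. Above 0 were 7 of them, against 52.1% of all genes, and 6 had an unadjusted p below 0.05 in edgeR, against 7.04%. For 3 all MERKO libraries lay above all control libraries, against 6.17% of all genes, and none of the 8 passed the threshold. The part of fibre type and tendon in the fold changes was not tested by a model. With MERKO 1 and control 1 both left out, the log2 fold changes were 0.90 for Fabp3, 0.63 for Acadl, 0.35 for Acadvl, 0.27 for Hadha, 0.18 for Hadhb, 0.33 for Cpt1a, 0.26 for Acacb and -0.14 for Cd36, with adjusted p-values of at least 0.291 (edgeR, 2 libraries per group).

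**Figure D3:**
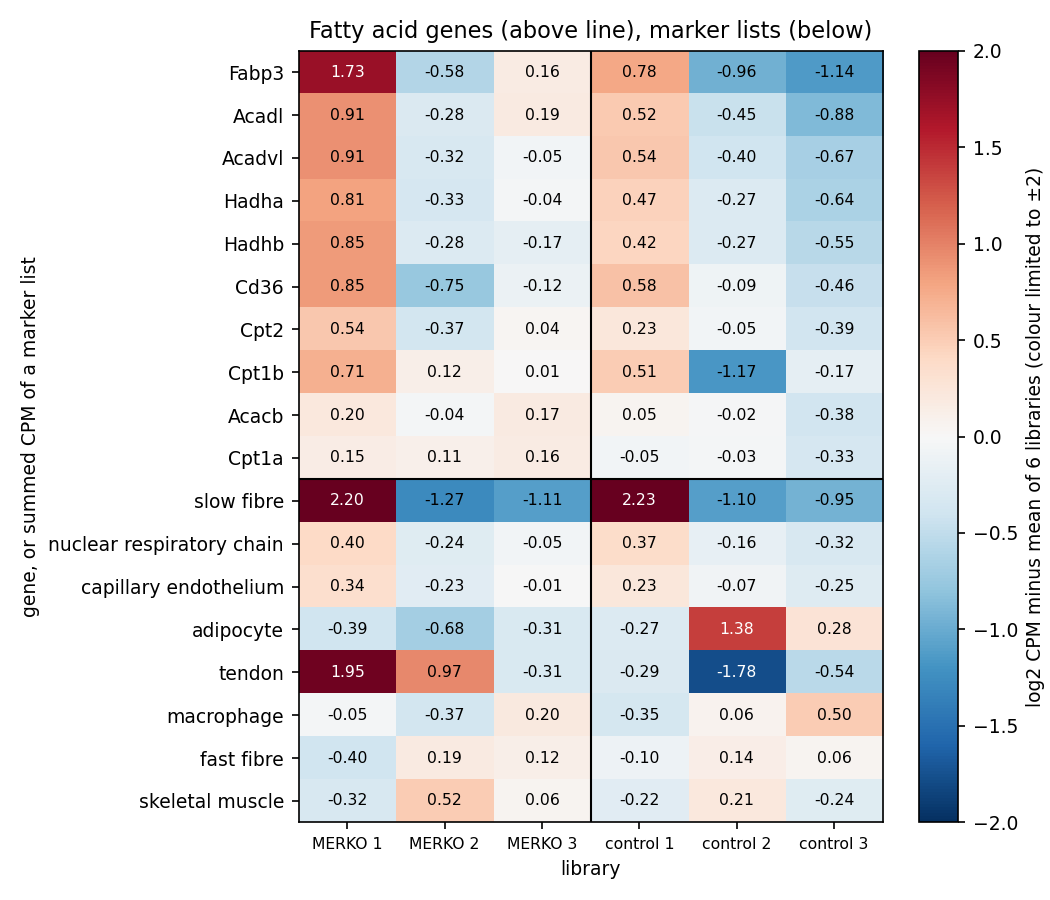
Log2 CPM of the 10 genes and of the summed CPM of 8 marker lists by library, each minus its mean over all 6 (red above, blue below, numbers are the values). Fabp3 ranges from 1.73 in MERKO 1 to -1.14 in control 3, Cpt1a from 0.16 to -0.33, and the slow-fibre list is high in MERKO 1 and control 1 alone.

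The genes most like each of the 10 were those whose log2 ratio to it varied least over the 6 libraries, among 4846 to 4847 genes with an average log2 CPM of at least 4. For Hadhb, Hadha came next (SD of the log2 ratio 0.0805) after Gpt, alanine aminotransferase (0.0508). For Acadvl, Hadha (0.085) came after Tmem65, an inner mitochondrial membrane protein (0.021), and before Etfdh, which passes electrons from acyl-CoA dehydrogenases to ubiquinone (0.0861). For Acadl, Acadvl came next (0.146) after Slc41a1 and Wfs1. Fabp3 had no close match, the nearest being Atp1b1, a sodium pump subunit (0.247), and Idh2, the mitochondrial isocitrate dehydrogenase (0.26). Cd36 was nearest to the imprinted noncoding RNA H19 (0.113), and Cpt2 to Jam2 (0.0675) and the catalase gene Cat (0.079). Cpt1a and Acacb varied with genes of other kinds, Cpt1a with the cytolinker genes Plec (0.0239) and Tln1 (0.0241), Acacb with Tjp1 (0.053), and with each other (0.0884). These are descriptions over 6 libraries in which steady genes match other steady genes easily.

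The other genes of the pathway were read from 9 lists with 58 genes, all of which were tested. None of the 58 passed in the edgeR test, nor by DESeq2 or limma-voom, and 1 of 58 had an unadjusted p below 0.05, against 7.04% of all genes. Of the 58 genes, 39 were above 0 and 19 below, with a median log2 fold change of 0.11, where 52.1% of all genes were above 0. The groups did not overlap in 4 of 58, Acaca, Prkab1, Scp2 and Plin2, against 13.3% of all genes. Without MERKO 1, 22 were above 0 and 36 below, and without control 1 these counts were 42 and 16. Without both they were 37 and 20, as Acot1 did not pass the filter on low counts in that fit. With control 3 alone left out, 34 were above 0 and 24 below.

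Of 7 genes of uptake and binding, 4 were above 0. Lpl, the lipoprotein lipase that releases fatty acids at the capillary, had 525, 143 and 253 CPM in MERKO 1 to 3, against 395, 189.8 and 106 CPM in control 1 to 3, in the library order of Hadha. Gpihbp1, the endothelial anchor of that lipase, averaged 22.2 ± 7.81 CPM over the MERKO and 26.3 ± 4.91 CPM over the control libraries (SD, n = 3 each), with a log2 fold change of -0.23, adjusted p = 0.854 in edgeR, and Got2 and Slc27a4, a transaminase that also binds fatty acids and a fatty acid transporter, had log2 fold changes of 0.23 and 0.16. Of 5 acyl-CoA synthetases, 3 were above 0. Acsl1, the main one of muscle, had 481, 205 and 249 CPM in MERKO 1 to 3, against 344, 232 and 152 CPM in control 1 to 3, with replicate 1 the highest of each group (log2 fold change 0.36, adjusted p = 0.842). Acsl5 and Acsl3 had log2 fold changes of 0.14 and -0.15.

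Of 4 other genes of the carnitine shuttle, 3 were above 0. Slc25a20, the carnitine-acylcarnitine carrier of the inner membrane, had 96.0, 48.6 and 53.5 CPM in MERKO 1 to 3, against 71.7, 38.4 and 35.4 CPM in control 1 to 3 (log2 fold change 0.45, adjusted p = 0.775, edgeR). That fold change was 0.074 without MERKO 1 and 0.84 without control 1. The log2 fold changes of Cpt1c, a brain isoform, and Crat, carnitine acetyltransferase, were 0.30 and 0.10. Of 11 other enzymes of beta-oxidation, 9 were above 0. Acaa2, the medium-chain thiolase, had 203, 66.6 and 89.0 CPM in MERKO 1 to 3, against 145, 61.0 and 55.2 CPM in control 1 to 3, in the library order of Fabp3 (log2 fold change 0.46, adjusted p = 0.845). Eci1, an enoyl-CoA isomerase, had a log2 fold change of 0.28. Hsd17b10, a short-chain dehydrogenase, lay below 0 at -0.16. The 3 genes of electron transfer from acyl-CoA dehydrogenases were above 0, with Etfdh at 0.36, Etfb at 0.35 and Etfa at 0.15.

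The list of malonyl-CoA metabolism and AMPK subunits had 3 genes above 0 and 6 below, with a median of -0.14. Acaca, the cytosolic acetyl-CoA carboxylase of lipid synthesis and paralogue of Acacb, had 15.8, 13.8 and 14.7 CPM in MERKO 1 to 3, against 15.9, 46.7 and 17.3 CPM in control 1 to 3. All MERKO libraries lay below all control libraries, but the log2 fold change of -0.82 (SE 0.38, adjusted p = 0.713, edgeR) was -0.16 without control 2, the library with the highest adipocyte markers. Mlycd, malonyl-CoA decarboxylase, which removes the inhibitor of CPT1, averaged 71.1 ± 18.1 CPM over the MERKO and 57.0 ± 16.0 CPM over the control libraries (SD, n = 3 each), with a log2 fold change of 0.32, adjusted p = 0.765. Prkab1, the beta 1 subunit of AMPK, had 5.44, 6.40 and 5.58 CPM in MERKO 1 to 3, against 6.43, 6.94 and 6.41 CPM in control 1 to 3, without overlap (log2 fold change -0.19, adjusted p = 0.757).

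Of 6 thioesterases, 5 were above 0, and Acot2, which cleaves acyl-CoA in mitochondria, had 30.3, 10.7 and 15.0 CPM in MERKO 1 to 3, against 20.6, 10.2 and 7.43 CPM in control 1 to 3. Its log2 fold change was 0.58 over all libraries, 0.028 without MERKO 1 and 1.13 without control 1. Its near-identical neighbour Acot1, which may share reads with it, reached 2.07 CPM in MERKO 1 and 1.47 CPM in control 1, with at most 0.529 CPM in the others, and Acot13 had a log2 fold change of -0.11. Of 8 peroxisomal genes, 6 were above 0. Scp2, a sterol carrier and thiolase, averaged 58.4 ± 2.07 CPM over the MERKO and 65.1 ± 2.51 CPM over the control libraries (SD, n = 3 each) without overlap (log2 fold change -0.15, adjusted p = 0.713), and the transporter gene Abcd3 had a log2 fold change of 0.26.

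Of 5 genes known to respond to fatty acids, 3 were above 0 and 2 below. Plin2, a lipid droplet coat protein, had 24.6, 20.8 and 26.7 CPM in MERKO 1 to 3, against 18.4, 19.9 and 17.6 CPM in control 1 to 3. All MERKO libraries lay above all control libraries, and it had the lowest p of the 58 genes (log2 fold change 0.37, SE 0.12, 95% interval 0.11 to 0.64, adjusted p = 0.665, unadjusted p = 0.0119, edgeR). Angptl4, an inhibitor of lipoprotein lipase, averaged 4.81 ± 1.97 CPM over the MERKO and 6.61 ± 0.905 CPM over the control libraries (SD, n = 3 each), with a log2 fold change of -0.40, adjusted p = 0.750, and Ucp3, an uncoupling protein of muscle, averaged 225 ± 43.5 CPM over the MERKO and 196 ± 55.9 CPM over the control libraries (SD, n = 3 each), with a log2 fold change of 0.21, adjusted p = 0.849. Plin2 and Angptl4, both genes that respond to fatty acids, thus stood on opposite sides of 0, and neither difference passed the threshold.

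**Figure D4:**
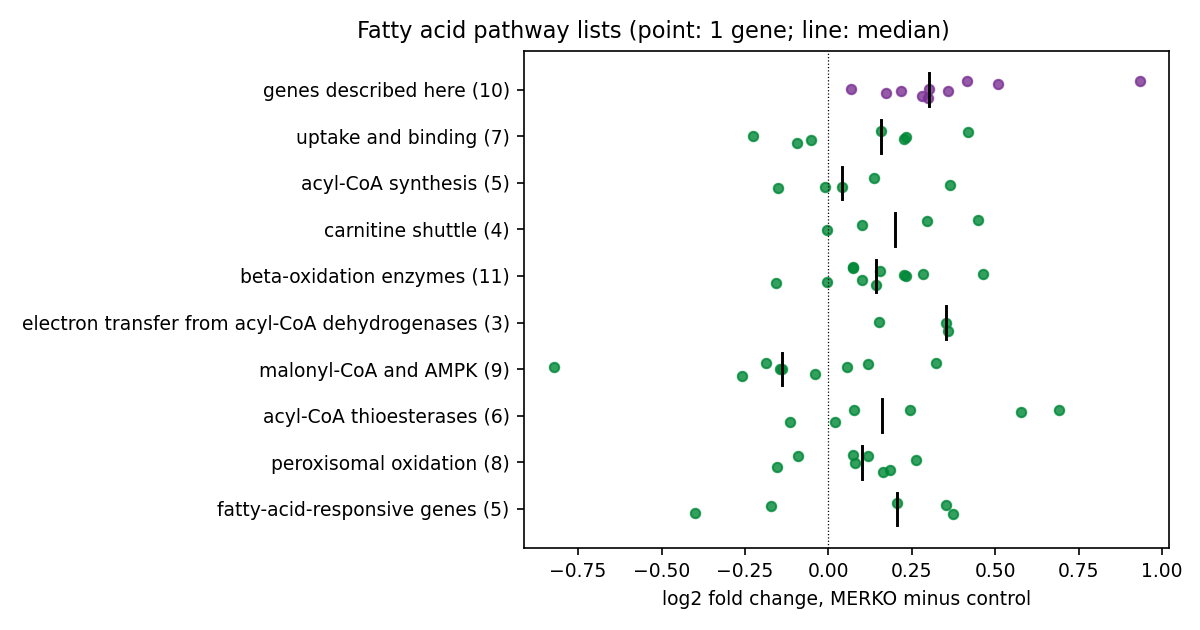
Log2 fold change, MERKO minus control, of the 10 genes described here (purple) and of the 58 genes of 9 other pathway lists (green), with the number of genes in brackets and a line at each median. The medians lie between -0.14 for malonyl-CoA and AMPK and 0.35 for electron transfer, and none of the points passed the threshold.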

How the data were processed

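Quadriceps RNA of 3 MERKO and 3 control samples was isolated with Trizol and sequenced from Illumina TruSeq libraries, per the labels' protocols. The authors deposited raw read counts for 48795 Ensembl genes, 1 column per library, each matched to a sample title. Among the tools in the submitters' processing notes are the aligner STAR (version 2.5.2b), HTSeq (0.9.1) and DESeq, and the builds are mm10 and GRCm38. The sources used here do not give the annotation release, the strand setting or what each tool was used for. No row stood for unassigned reads. Separate animals are not stated, so p-values measure the spread between libraries. The libraries of each group differed by more than sampling noise (chi-square per degree of freedom at least 122.1).

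Symbols matched 48349 identifiers. MERKO was compared with control by edgeR 4.0.16 (R 4.3.3) quasi-likelihood tests on genotype, with filterByExpr (13628 genes), TMM factors and Benjamini-Hochberg adjustment over all genes tested, at a threshold of 0.05. Fold changes are log2, MERKO minus control, with SEs and 95% intervals. CPM values use TMM factors. The biological coefficient of variation was 18.6%. Ratios within a library used exact two-sided permutation tests. The code was tested on simulated data. Exon lengths, overlaps and coordinates come from GENCODE M21 (GRCm38), matched on identifiers without version, and promoter windows from RefSeq (GRCm38.p6).

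The genes described and the pathway and marker lists were chosen with earlier results of these data known. The genes described are all named. Of each other pathway list, the 3 members with the lowest p are named, and Lpl was added after its values were seen. Likest genes were the 3 with the smallest SD of the log2 ratio (TMM-scaled log2 CPM, prior count 2). Some genes that these rules pick are not reported here. Alternatives were DESeq2 1.42.0, limma-voom (limma 3.58.1), RLE factors, plain totals without a composition factor, keeping all genes with counts, keeping genes with 1 CPM in 3 libraries, a replicate block, removal of the rRNA gene model or of genes of mitochondrial DNA, a robust prior, a threshold of 0.1, and leaving out each library or MERKO 1 and control 1 together. Ratios were also taken with a prior count of 2, and lengths from the longest transcript.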

Additional observations from a re-analysis of the deposited data

How the results depend on the processing

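Over the 10 genes and 17 alternatives, the fold change kept its direction 160 times and turned sign 10 times, with no gene called. Over 28 other named genes the sign turned 11 times. Cd36 was -0.10 with limma-voom, -0.012 with the replicate block and -0.14 without MERKO 1 and control 1 together, a setting in which Acsl5 was -0.093. When single libraries were left out, the log2 fold changes lay between -0.48 and 0.41 for Cd36, -0.10 and 0.37 for Cpt2, -0.10 and 0.81 for Acadvl, -0.11 and 0.67 for Hadha, -0.15 and 0.63 for Hadhb, -0.47 and 0.018 for Gpihbp1, -0.067 and 0.55 for Got2, -0.10 and 0.70 for Acsl1, -0.35 and 0.030 for Acsl3, -0.16 and 1.04 for Acaa2, -0.12 and 0.61 for Eci1, -0.019 and 0.78 for Etfdh, -0.11 and 0.39 for Etfa, -0.74 and 2.05 for Acot1 and -0.32 and 0.041 for Acot13. Without a turn of sign, they lay between 0.11 and 0.58 for Mlycd, 0.018 and 0.55 for Etfb, 0.075 and 0.46 for Ucp3, 0.036 and 0.55 for Cpt1c, 0.011 and 0.21 for Crat, 0.054 and 0.31 for Slc27a4, 0.0010 and 0.24 for Acsl5, 0.087 and 0.44 for Abcd3, -0.24 and -0.067 for Hsd17b10 and -0.76 and -0.17 for Angptl4. The count of called genes, 1 in all, was 23 with DESeq2, 93 without a composition factor, which moved the median log2 fold change of all genes to -0.10, 140 without a filter, 51 with the replicate block and 7 without MERKO 1 and control 1 together, and between 0 and 11 when a library was left out. None of these settings called one of the 10 genes or of the 58 pathway genes, and the smallest adjusted p of the 10 genes was 0.0631, for Fabp3 with the replicate block, and of the pathway genes named 0.0744, for Slc25a20. With that block 6 of the 10 genes had an unadjusted p below 0.05, against 12.8% of all genes, and called genes were 0.374%. The sample titles give same-numbered libraries no link beyond the number, and whether they belong together is not stated. Their deviations from the group mean correlated at 0.448, 0.163 and 0.0612 for numbers 1 to 3. MERKO 1 correlated best with control 1, MERKO 2 with control 3 (0.184) and MERKO 3 with control 2 (0.137). The ratio differences lay between -0.63 and 0.22 for Cpt1a to Cpt1b, -0.64 and 0.16 for Acacb to Cpt1b and -0.031 and 0.062 for Hadha to Hadhb when a library was left out. The causes of these shifts were not tested. Counts were lowest for Cpt1b among the 10 genes, 7 to 67 per library, and Acot1 had 1 to 68.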

Other observations

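The make-up of the pathway differed between libraries of the same genotype. Of the summed CPM of the 10 genes, Acacb took 13.7, 25.7 and 23.4% in MERKO 1 to 3, against 16.1, 24.6 and 24.1% in control 1 to 3. Fabp3 took 14.1, 6.31 and 8.31% in MERKO 1 to 3, against 9.47, 4.57 and 5.08% in control 1 to 3. Acacb, which encodes the enzyme that makes the inhibitor of CPT1, thus had its smallest share of each group in MERKO 1 and control 1, where Fabp3 had its largest, although the level of Acacb itself was the highest of each group there (MERKO 1 had 336 CPM and control 1 had 303 CPM). Hadha held a nearly fixed share, of 16.1, 16.3 and 15.7% in MERKO 1 to 3, against 16.6, 16.0 and 15.6% in control 1 to 3. Cd36 took 18.3, 13.4 and 16.4% in MERKO 1 to 3, against 19.9, 20.0 and 19.6% in control 1 to 3, so that all control libraries lay above all MERKO libraries in this share. That pattern was noticed after the values were seen and was not tested. No other of the 10 genes had shares apart in this way. The shares of a library depend on one another, so that of Cd36 falls where the other genes rise. A share is also not corrected for transcript length.

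Pdk4, the kinase that shuts off pyruvate oxidation when fatty acids are burnt, had 1223, 395 and 777 CPM in MERKO 1 to 3, against 930.2, 499 and 446 CPM in control 1 to 3, again with replicate 1 the highest of each group. Prkag3, the gamma subunit of AMPK found in fast glycolytic fibres, ran the other way, with 58.4, 159 and 122 CPM in MERKO 1 to 3, against 100.4, 151 and 154 CPM in control 1 to 3. Its lowest value was that of MERKO 1, and next came control 1. Both genes were picked after their values were seen.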
